A study of Mus musculus with 6 samples.

Results

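The phagocyte NADPH oxidase, a membrane enzyme complex that makes superoxide, was examined through 9 genes for its subunits and for proteins that switch it on: Cybb, Cyba, Ncf1, Ncf4, Rac1, Rac2, Vav1, Prkcd and Hvcn1. They were picked out by gene symbol, from a set drawn up with earlier results of these data known, and are 9 of the 49315 rows of the count table. RNA was sequenced from RAW264.7, a mouse macrophage line transformed with Abelson leukemia virus, labelled as wild type in all libraries. Cells received SKI-II, an inhibitor of sphingosine kinases, at 4 μg/mL or DMSO, the vehicle, for 24 h, and each condition was measured in 3 libraries. The comparison asked which transcripts differed in macrophages exposed to SKI-II. The labels do not say whether libraries of a condition came from separate cultures, so p-values measure only the spread between these samples.

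In resting phagocytes the enzyme is kept apart in pieces. The catalytic core is a membrane pair of gp91phox, encoded by Cybb and also called NOX2, and p22phox, encoded by Cyba. On stimulation, kinases phosphorylate the cytosolic subunits, which move to the membrane together with a Rac GTPase, and electrons then pass from NADPH across the membrane to oxygen. Macrophages and neutrophils use the resulting superoxide against ingested microbes, and loss of a subunit causes chronic granulomatous disease.

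Among the 9 genes, 3 fell with SKI-II (Cybb, Ncf1 and Rac2), 1 rose (Vav1) and 5 did not pass the test (Cyba, Ncf4, Rac1, Prkcd and Hvcn1). The test was edgeR's quasi-likelihood F test, with p-values adjusted by Benjamini-Hochberg over all 12274 genes tested and a threshold of 0.05. By the same rule, 19.7% of all tested genes were lower and 18.4% higher. Cybb stood far from the other members, at 16.9-fold lower. With the added condition of a log2 fold change above 1 or below -1, Cybb was the single member called, where 7.44% of tested genes were called lower and 8.28% higher. The median log2 fold change of the members was -0.29, beside 0.00 over all tested genes. All 9 genes had enough reads for the test in both conditions, and the lowest count of any of them in any library was 29, for Hvcn1. In these bulk samples, fewer cells that express a gene and less of its RNA per cell cannot be told apart.

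**Figure D1:**
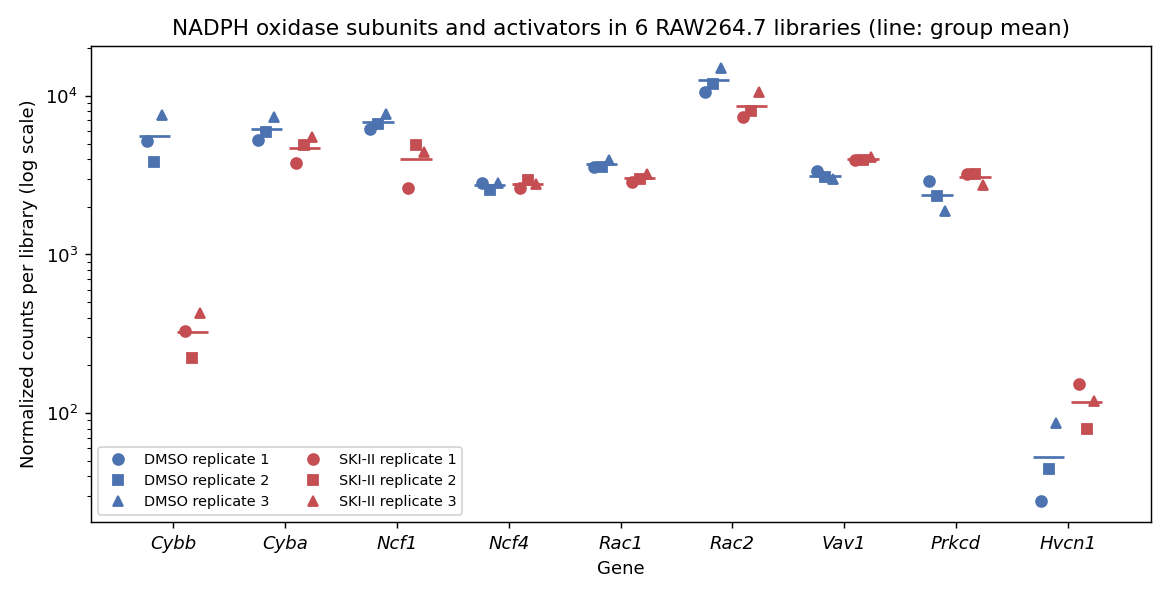
Normalized counts (log scale) of the 9 genes in each of the 6 libraries, with DMSO in blue, SKI-II in red, a marker shape for each library number and a line at each group mean. The Cybb values of 224 to 427 with SKI-II lie below every DMSO value of that gene, 3811 to 7616, while the groups of Ncf4 lie on top of each other.

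The libraries held 12495957 to 20050677 counts. Macrophage identity was read from 8 marker genes, which were all detected. Their summed normalized counts were 134219 to 198751 in DMSO and 83354 to 119828 with SKI-II, with Lyz2 as the largest term in every library, and 2 of the 8 rose (Cd14 and Fcgr1), 3 fell (Adgre1, Lyz2 and Itgam) and 3 did not pass (Csf1r, Cd68 and Mertk). Neutrophils also carry the oxidase, and 7 of 8 neutrophil markers were under 10 counts in every library, with Ly6g, Ltf and Ngp at 0 throughout. S100a8 made up nearly all of that list's sum of 36.9 to 104 in DMSO and 30.2 to 112 with SKI-II. The B cell list summed to at most 5.59 normalized counts, with Ms4a1 at 0, and the fibroblast list to at most 20.4, with Lum at 0. All 5 epithelial markers were at 0. The T cell list summed to 96.0 to 115 in DMSO and 175 to 240 with SKI-II, nearly all of it from the kinase gene Lck, with Cd3g at 0. The share of counts in mitochondrial genes was 1.07% to 1.25% in DMSO and 1.38% to 1.71% with SKI-II, and its part in the results was not tested. The DMSO replicate 3 library gave the highest value of its group for 7 of the 9 genes, and SKI-II replicate 3 for 5.

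The promoters of the 3 called genes that have an entry in the promoter table are shown because the transcripts of Cybb and Ncf1 fell and that of Vav1 rose. The sequences are those of RefSeq on build GRCm38.p6 and run 5′ to 3′ on the gene's strand, from 250 bases before the start that RefSeq annotates to 50 bases after it. For Cybb that start lies inside the longer gene span that GENCODE gives, downstream of its outermost start, and the window around the outermost start was not used here. Capitals mark matches, on either strand, to GAGGAA, a core that PU.1 binds, or to GAAA, any 2 bases and GAAA again, a pattern that interferon regulatory factors bind and that is called the GAAA pair here. The windows are chrX:9469275-9469574 on the minus strand for Cybb, chr5:134229576-134229875 on the minus strand for Ncf1 and chr17:57278850-57279149 on the plus strand for Vav1.
Cybb: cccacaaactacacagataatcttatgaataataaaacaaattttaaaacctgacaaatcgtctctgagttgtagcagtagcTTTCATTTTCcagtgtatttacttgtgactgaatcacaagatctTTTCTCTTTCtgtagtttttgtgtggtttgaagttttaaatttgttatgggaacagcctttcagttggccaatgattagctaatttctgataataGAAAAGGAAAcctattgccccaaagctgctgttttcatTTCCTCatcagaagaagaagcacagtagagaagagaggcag
Ncf1: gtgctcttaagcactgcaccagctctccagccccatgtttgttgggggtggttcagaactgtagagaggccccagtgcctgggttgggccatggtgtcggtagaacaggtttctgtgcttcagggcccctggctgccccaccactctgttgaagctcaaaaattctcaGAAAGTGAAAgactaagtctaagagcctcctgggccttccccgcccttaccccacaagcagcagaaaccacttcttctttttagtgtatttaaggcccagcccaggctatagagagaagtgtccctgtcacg
Vav1: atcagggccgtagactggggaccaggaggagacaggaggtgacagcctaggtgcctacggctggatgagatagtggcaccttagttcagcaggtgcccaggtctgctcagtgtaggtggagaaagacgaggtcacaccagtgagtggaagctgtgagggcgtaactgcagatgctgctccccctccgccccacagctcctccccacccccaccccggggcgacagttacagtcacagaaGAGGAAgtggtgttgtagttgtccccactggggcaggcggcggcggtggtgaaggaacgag

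The GAAA pair was found 3 times in the Cybb window, at -168 to -159 and -124 to -115 on the opposite strand and at -29 to -20 on the gene's own strand, counted from the RefSeq start. It was found once in the Ncf1 window, at -82 to -73, and not in that of Vav1. Of the 32851 promoter windows in the table, 3.44% hold this pattern. GAGGAA was found at 10 to 15 in Cybb, on the opposite strand, and at -11 to -6 in Vav1, and 28.3% of all windows hold it. No 2 of these matches overlapped. TGACNNNGC, the core of the antioxidant response element that Nrf2 binds, was in none of the 6 windows that matched the members (Cybb, Cyba, Ncf1, Vav1 and 2 of Prkcd) and is in 12.4% of all windows, and the windows of Cyba and Prkcd held none of the 3 patterns. A match describes the letters in the window and is not evidence of binding. The table matched 5 of the 9 genes, and Ncf4, Rac1, Rac2 and Hvcn1 had no entry.

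Cybb, the catalytic subunit (ENSMUSG00000015340, chrX:9435252-9487771 on the minus strand of GRCm38), had 5194, 3811 and 7616 normalized counts in DMSO replicates 1, 2 and 3 and 329, 224 and 427 in SKI-II replicates 1, 2 and 3. Every SKI-II library lay far below every DMSO library, and the spread within each condition was small beside the gap between them. The mean went from 5540 ± 1926 to 327 ± 101 (SD, n = 3 per group), a log2 fold change of -4.08 (SE 0.27, 95% interval -4.69 to -3.47, adjusted p = 1.50e-05 by edgeR). Among all tested genes 16 had a lower log2 fold change. Among the 3810 genes whose DMSO mean reached 1000 normalized counts, a level chosen after the values were seen, none had a lower log2 fold change than Cybb. Cybb met this level only through DMSO, its SKI-II mean being 327, so this place describes the chosen subset and is no added support. Without any single library the log2 fold change stayed between -4.33 and -3.78, and the call held in all 6 cases.

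Cyba, the p22phox partner that stabilises gp91phox in the membrane (ENSMUSG00000006519, chr8:122424776-122432930, minus strand), had 5273, 5909 and 7302 normalized counts in DMSO and 3771, 4869 and 5512 with SKI-II. The means were lower with SKI-II, but the highest SKI-II library exceeded the lowest DMSO library. Its log2 fold change of -0.39 (SE 0.17, 95% interval -0.77 to 0.00) did not pass the test (adjusted p = 0.109 by edgeR). In phagocytes the proteins of the membrane pair stabilise each other, and protein was not measured here. The ratio of Cyba to Cybb per exon length was 5.68, 8.67 and 5.36 in DMSO and 64.1, 121 and 72.2 with SKI-II. All SKI-II ratios were above all DMSO ratios, with a 12.9-fold higher geometric mean (log2 difference 3.69, two-sided exact permutation p = 0.1, the smallest that 3 against 3 libraries can give). This difference largely restates the Cybb log2 fold change of -4.08, beside -0.39 for Cyba, and is not a separate result.

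Ncf1 encodes p47phox, the organiser subunit whose phosphorylation starts assembly (ENSMUSG00000015950, chr5:134220053-134229625, minus strand). Its normalized counts were 6162, 6594 and 7688 in DMSO and 2632, 4867 and 4402 with SKI-II. The groups did not overlap, as for 25.5% of tested genes in this direction, and SKI-II replicate 1 was well below the other SKI-II libraries. The mean fell from 6815 ± 786 to 3967 ± 1180 (SD, n = 3 per group), with a log2 fold change of -0.78 (SE 0.21, adjusted p = 0.0158 by edgeR). Without any single library the log2 fold change lay between -0.95 and -0.56, and the call held in all 6 cases, at adjusted p of up to 0.0427. Ncf1 shares 408 of its 3663 exon bases with Gtf2ird2 on the opposite strand, which had 56.4 to 133 normalized counts in DMSO and 191 to 282 with SKI-II.

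Ncf4 encodes p40phox, which binds phosphatidylinositol 3-phosphate on phagosomes (ENSMUSG00000071715, chr15:78244801-78262580, plus strand). It had 2806, 2537 and 2835 normalized counts in DMSO and 2608, 2959 and 2793 with SKI-II. Both conditions covered nearly the same range. The log2 fold change was 0.03 (SE 0.11, adjusted p = 0.850 by edgeR), with a 95% interval of -0.22 to 0.28, and it went to -0.025 without DMSO replicate 2 and to -0.011 without SKI-II replicate 2.

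Rac2, the Rac GTPase largely restricted to blood cells (ENSMUSG00000033220, chr15:78559167-78572783, minus strand), had 10483, 11940 and 15042 normalized counts in DMSO and 7377, 8007 and 10576 with SKI-II. SKI-II replicate 3 was just above DMSO replicate 1, so the groups overlapped. The mean fell from 12489 ± 2328 to 8653 ± 1695 (SD, n = 3 per group), with a log2 fold change of -0.53 (SE 0.18, adjusted p = 0.0460 by edgeR). The call was lost without DMSO replicate 2 (adjusted p = 0.0987), without DMSO replicate 3 (0.135), and without replicate 1 (0.130) or 2 (0.152) of SKI-II, with log2 fold changes of -0.57, -0.38, -0.43 and -0.47.

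Rac1, the Rac GTPase found in most tissues (ENSMUSG00000001847, chr5:143503634-143528036, minus strand), had 3570, 3580 and 3957 normalized counts in DMSO and 2880, 2988 and 3217 with SKI-II. Every SKI-II library was below every DMSO library, but the gap was narrow. The log2 fold change of -0.29 (SE 0.11, 95% interval -0.54 to -0.04) did not pass the test (adjusted p = 0.0699 by edgeR), and passed with scaling by library size alone (0.0467). More than the other members, Rac1 shares its exons with another gene: 2309 of 4496 bases overlap Daglb on the opposite strand, which had 696 to 825 normalized counts in DMSO and 261 to 337 with SKI-II (log2 fold change -1.39, adjusted p = 0.000110). Whether the counting used strand is not given, so reads of Rac1 and Daglb may not be separable. Rac1, Rac2 and Rac3 are also close relatives whose reads could be split, and Rac3 had at most 13 counts in any library. The ratio of Rac2 to Rac1 per exon length was 4.26, 4.83 and 5.51 in DMSO and 3.71, 3.88 and 4.76 with SKI-II, which overlap (log2 difference -0.24, two-sided exact permutation p = 0.2, where 0.1 is the smallest possible).

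Vav1, a guanine nucleotide exchange factor of blood cells that loads Rac with GTP (ENSMUSG00000034116, chr17:57279100-57328031, plus strand), was the member that rose. It had 3356, 3068 and 2970 normalized counts in DMSO and 3951, 3914 and 4109 with SKI-II. The groups did not overlap, as for 24.8% of tested genes in this direction. The mean went from 3131 ± 201 to 3992 ± 104 (SD, n = 3 per group), 1.27-fold (log2 fold change 0.35, SE 0.11, adjusted p = 0.0322 by edgeR). This call was lost without DMSO replicate 2 (adjusted p = 0.145), without DMSO replicate 3 (0.0905), and without replicate 1 (0.0530), 2 (0.0785) or 3 (0.0818) of SKI-II, and with no filter on low counts (0.0892), while the log2 fold change stayed between 0.31 and 0.39 in every case with 1 library left out.

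Prkcd encodes protein kinase C delta, one of the kinases that phosphorylate p47phox (ENSMUSG00000021948, chr14:30595354-30626210, minus strand). Its normalized counts were 2891, 2338 and 1891 in DMSO and 3221, 3219 and 2734 with SKI-II. The lowest SKI-II library was below the highest DMSO library, and the DMSO libraries were widely spread. The log2 fold change of 0.37 (SE 0.16, 95% interval 0.01 to 0.72) did not pass the test (adjusted p = 0.0993 by edgeR), and passed without DMSO replicate 1 at 0.52 (0.0240).

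Hvcn1 encodes the voltage-gated proton channel that lets protons leave as the oxidase moves electrons (ENSMUSG00000064267, chr5:122206804-122242297, plus strand). It had the lowest counts of the members in every library, though per exon length its range with SKI-II overlapped that of Cybb. Raw counts were 29, 35 and 88 in DMSO and 136, 83 and 147 with SKI-II. After normalization they were 28.2, 44.2 and 87.1 against 152, 79.2 and 120. DMSO replicate 3 exceeded SKI-II replicate 2, so the groups overlapped. The log2 fold change of 1.13 (SE 0.40, 95% interval 0.23 to 2.03) lay just outside the threshold (adjusted p = 0.0510 by edgeR). It passed with DESeq2 (0.0176), with limma-voom (0.0383) and with the other scalings and filters tried. With 1 library left out it ranged from 0.80 to 1.70 and passed in 2 of 6 cases, without DMSO replicate 3 (1.70, adjusted p = 0.00579 by edgeR) and without SKI-II replicate 2 (1.35, 0.0462). It did not pass without DMSO replicate 1 (0.80, adjusted p = 0.112) or 2 (1.01, 0.153), or without SKI-II replicate 1 (0.90, 0.178) or 3 (1.11, 0.0874). Hvcn1 shares 1574 of its 3563 exon bases with Tctn1 on the opposite strand, which had 136 to 139 normalized counts in DMSO and 142 to 205 with SKI-II (log2 fold change 0.26, adjusted p = 0.343). Without the strand setting of the counting, reads of Hvcn1 and of Tctn1, which had a higher mean in both conditions, may not be separable.

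**Figure D2:**
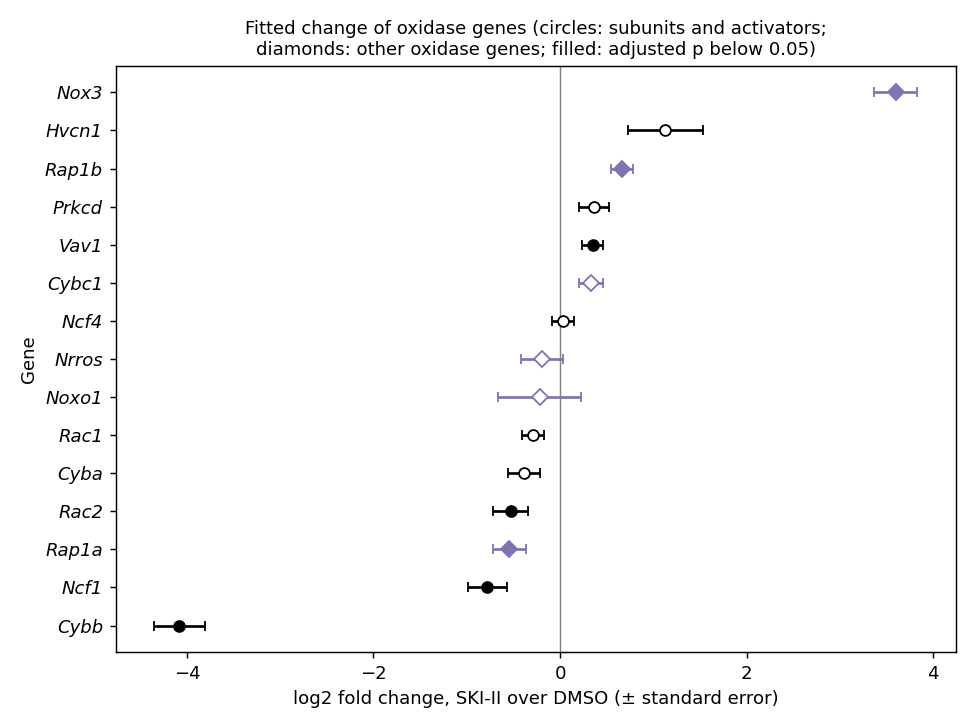
Fitted log2 fold change with SKI-II over DMSO (horizontal axis, bars ± standard error) for the 9 genes as circles and 6 genes of the list of other NADPH oxidases and their partner proteins as diamonds, filled where the adjusted p was below 0.05. Cybb at -4.08 and Nox3 at 3.60 lie at opposite ends, and the other genes lie between -0.78 and 1.13.

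Groups that did not overlap were seen for 4 of the 9 genes (Cybb, Ncf1 and Rac1 lower, Vav1 higher), where 50.3% of all tested genes did so in either direction. The share of members called in either direction, 4 of 9, likewise stands beside 38.0% of all tested genes. In the distribution of log2 fold changes, 16 of the 12274 tested genes were lower than Cybb and 927 were higher than Hvcn1, and the other members lay between -0.78 and 0.37.

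**Figure D3:**
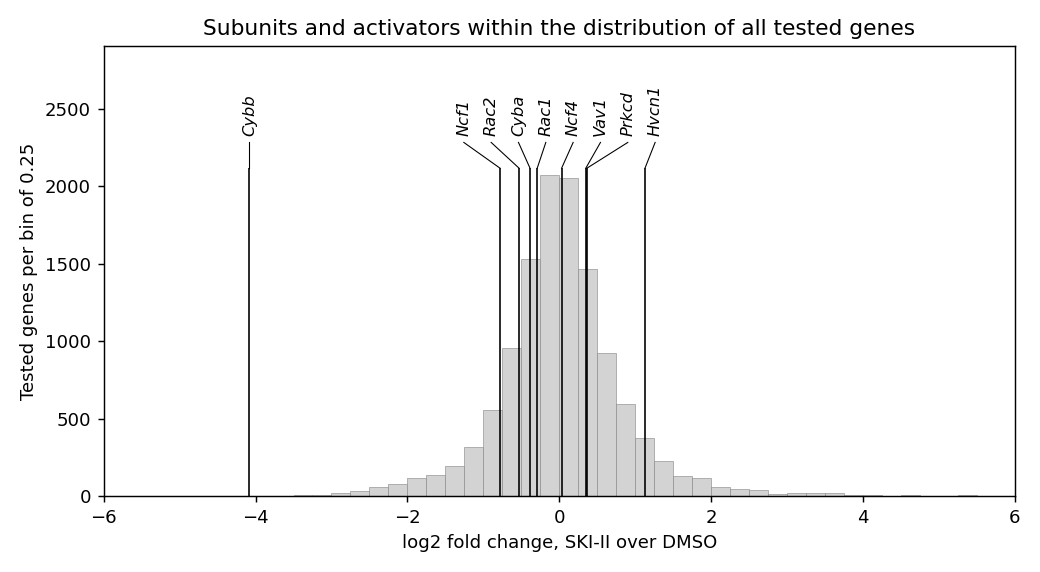
Histogram of log2 fold change with SKI-II over DMSO (horizontal axis, shown from -6 to 6, so that genes beyond it are not drawn) for the 12274 tested genes, with the number of genes per bin of 0.25 on the vertical axis and a black line at each of the 9 genes. The line of Cybb at -4.08 stands apart from the others, which lie between -0.78 and 1.13.

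Levels per length, as CPM per kilobase of exon with TMM-scaled library sizes, allow the genes to be set against each other. In DMSO the order of the means was Cyba (370 ± 62.2), Rac2 (251 ± 46.8), Ncf1 (116 ± 13.4), Ncf4 (84.1 ± 5.07), Cybb (59.5 ± 20.7), Vav1 (52.9 ± 3.39), Rac1 (51.3 ± 3.06), Prkcd (26.7 ± 5.63) and Hvcn1 (0.930 ± 0.533; all SD, n = 3). The ranges of neighbours overlapped for Ncf4 and Cybb, Cybb and Vav1, and Vav1 and Rac1, and were apart for the other pairs. With SKI-II, Cybb dropped from place 5 to place 8, at 3.51 ± 1.09, between Prkcd (34.4 ± 3.16) and Hvcn1 (2.05 ± 0.640). Its level went from percentile 93.2 to percentile 34.1 among all tested genes. Cyba stayed first at 283 ± 52.8 and Rac2 next at 174 ± 34.0, followed by Ncf4 (86.0 ± 5.41), Ncf1 (67.5 ± 20.1), Vav1 (67.5 ± 1.75) and Rac1 (42.0 ± 2.38). Ranges of neighbours with SKI-II overlapped for Ncf4 and Ncf1, Ncf1 and Vav1, and Cybb and Hvcn1. With the length of the longest transcript in place of all exons, the DMSO order was the same, and Rac1 and Prkcd changed places with SKI-II.

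**Figure D4:**
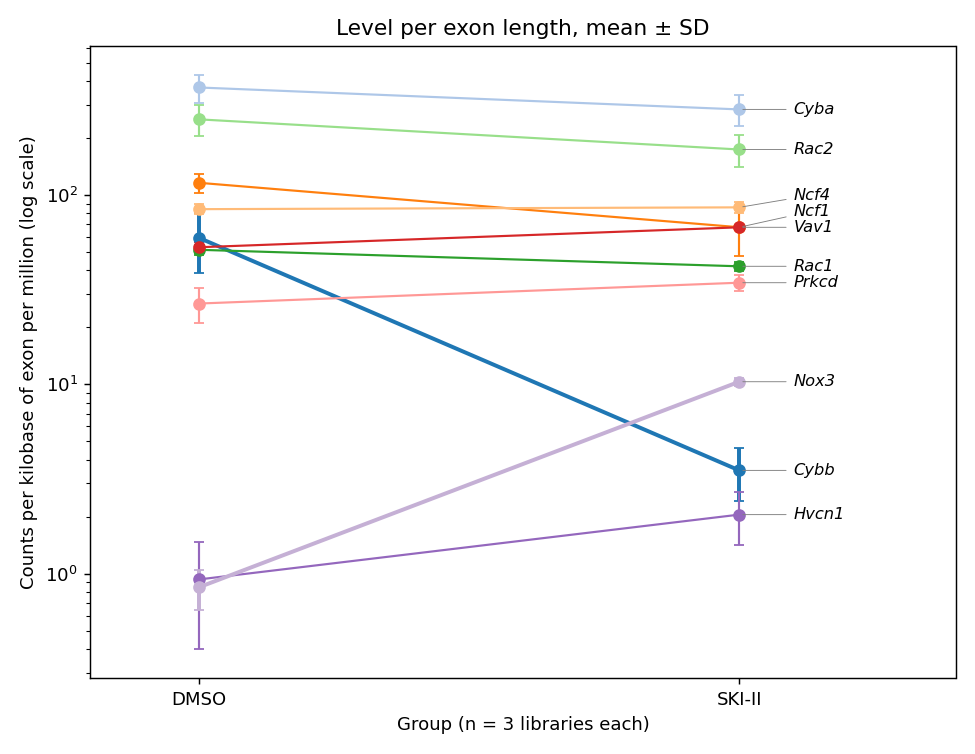
Mean level per exon length (CPM per kilobase of exon, log scale, bars SD, n = 3 libraries) in DMSO and with SKI-II for the 9 genes and for Nox3, joined by a line per gene. Cybb goes from 59.5 to 3.51 and crosses Nox3, which goes from 0.845 to 10.3.

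Other NADPH oxidases and their partner proteins made up a list of 14 genes, of which 7 had enough reads for the test, 3 rose (Nox3 and Rap1b among them), 1 fell (Rap1a) and 3 did not pass (Cybc1, Nrros and Noxo1), with a median log2 fold change of 0.33. Nox3, a catalytic subunit of the same family as Cybb and best known from the inner ear, had 20, 18 and 31 raw counts in DMSO and 256, 327 and 357 with SKI-II. Its normalized mean rose from 24.3 ± 5.79 to 296 ± 13.7 (SD, n = 3 per group), 12.1-fold (log2 fold change 3.60, SE 0.23, adjusted p = 8.79e-06 by edgeR), and the groups were far apart. Per exon length it was below Cybb in DMSO, at 0.845 ± 0.201 against 59.5, and above it with SKI-II, at 10.3 ± 0.476 against 3.51. Of the other catalytic subunits, Nox1 had at most 13 counts in any library and Duox2 at most 3, and Nox4 and Duox1 had none.

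The Rap1 GTPases, of which Rap1a was purified together with the membrane core, passed the test in opposite directions. Rap1b rose from 3317 ± 220 to 5267 ± 368 normalized counts (log2 fold change 0.67, adjusted p = 0.00201 by edgeR), and Rap1a fell from 2582 ± 541 to 1770 ± 322 (-0.54, adjusted p = 0.0354). Cybc1, a chaperone needed for gp91phox protein, had 503, 519 and 511 normalized counts in DMSO and 705, 601 and 624 with SKI-II. Its groups did not overlap, but its log2 fold change of 0.33 (SE 0.13, adjusted p = 0.0653 by edgeR) did not pass. Nrros, which lowers gp91phox protein, had a log2 fold change of -0.19 (SE 0.23, adjusted p = 0.545). Noxo1, the organiser of the NOX1 enzyme, had at most 24.3 normalized counts in any library, and 2122 of its 3013 exon bases overlap Tbl3 on the opposite strand.

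Rac relatives, exchange factors and inhibitors were 16 genes, with 14 tested, 2 higher, 3 lower and a median log2 fold change of 0.12. Prex1, an exchange factor for Rac that responds to phosphoinositides, fell from 4229 ± 430 to 2226 ± 154 normalized counts (log2 fold change -0.93, adjusted p = 0.000391 by edgeR). Within the exchange complexes of DOCK and ELMO proteins, Elmo1 rose from 2083 ± 42.5 to 3278 ± 408 (0.65, adjusted p = 0.00263), Dock2, the form of blood cells, also rose (0.57, adjusted p = 0.00657), and Dock1 fell from 1408 ± 49.99 to 899 ± 42.2 (-0.65, adjusted p = 0.00171). Abr, which returns Rac to its inactive form, fell (-0.59, adjusted p = 0.00445).

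Kinases that act on the cytosolic subunits were 13 genes, with 11 tested, 2 higher, 5 lower and a median log2 fold change of -0.33. Mapkapk2, the kinase downstream of p38, fell from 9322 ± 1805 to 4478 ± 1007 normalized counts (log2 fold change -1.06, adjusted p = 0.00223 by edgeR). Prkca, a conventional protein kinase C, fell from 603 ± 77.5 to 361 ± 57.5 (-0.74, adjusted p = 0.00665), and Pak1, a kinase that Rac activates, fell from 2183 ± 314 to 1336 ± 259 (-0.71, adjusted p = 0.00742). Pak2 (-0.50) also fell, while Irak4 (0.65) and Prkce (0.63) rose. Prkcb was at 0 in every library.

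Receptor-proximal and phosphoinositide signalling genes, which carry signals from integrins and Fc receptors to the oxidase, numbered 17, all tested, with 2 higher, 6 lower and a median log2 fold change of -0.21. Itgb2, the beta chain of the leukocyte integrins, had 8380, 7747 and 8761 normalized counts in DMSO and 1315, 1700 and 1258 with SKI-II. All SKI-II libraries were far below all DMSO libraries. The mean fell from 8296 ± 513 to 1424 ± 241 (SD, n = 3 per group; log2 fold change -2.54, SE 0.14, adjusted p = 7.52e-06 by edgeR). Itgam, its alpha partner in the complement receptor, fell as well (-0.93, adjusted p = 0.00781). Of the Src-family kinases, Fgr fell from 783 ± 54.4 to 347 ± 94.5 (-1.17, adjusted p = 0.00148), while Src rose (0.67, adjusted p = 0.0323). The Src groups overlapped, with SKI-II replicate 2 at 1392 normalized counts and DMSO replicate 3 at 1464. Syk, which couples these receptors to VAV proteins, rose (0.53, adjusted p = 0.0230), and the phosphoinositide 3-kinase genes Pik3cd (-0.94) and Pik3r5 (-0.52) fell.

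Transcription factors known to act on phagocyte oxidase genes were 10 genes, all tested, with 2 higher, 2 lower and a median log2 fold change of 0.04. Spi1, which encodes PU.1, had a log2 fold change of -0.11 (adjusted p = 0.512 by edgeR), and Irf8 of -0.15 (adjusted p = 0.526). Irf1, which binds the Cybb promoter after interferon, fell (-0.61, adjusted p = 0.0255). Of the C/EBP genes, Cebpa did not pass, and the other two passed as higher, with Cebpe rising from 132 ± 46.1 to 504 ± 102 normalized counts (1.92, adjusted p = 0.000355) and Cebpb from 1386 ± 117 to 2999 ± 439 (1.11, adjusted p = 0.000246).

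Over the 6 lists of pathway genes together, including that of the enzymes that remove superoxide and peroxide, 64 of 76 genes were tested, 12 rose and 19 fell, beside 18.4% and 19.7% of all tested genes. Their median log2 fold change was -0.07, and 33 did not pass.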

How the data were processed

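RNA of 6 RAW264.7 libraries was enriched with oligo(dT) beads and sequenced. The authors deposited whole-number read counts per Ensembl gene, not normalized, with totals of 12495957 to 20050677 per library. The submitters' processing notes name Trimmomatic 0.36, STAR 2.5.2b, featureCounts, Subread 1.5.2 and DESeq2, but for genome build, annotation and strandedness the entry is "not given in the sources used here". Groups and replicate numbers came from the sample labels, and no column was left out. GENCODE M21 (GRCm38) named 48970 of 49315 rows and gave positions and exon lengths, and unnamed rows held 0.0391% of counts. No pair of libraries of a condition agreed within sampling noise (chi-square per degree of freedom 15.4 to 58.1).

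Genes were tested in R 4.3.3 by the quasi-likelihood test of edgeR 4.0.16, using TMM scaling, a filter on expression by group (minimum count 10, minimum total 15) and Benjamini-Hochberg adjustment over 12274 genes. To normalize, each count was divided by its TMM-scaled library size, then brought to the mean size of 16042438. Standard errors follow from the fitted weights and the moderated dispersion, and intervals are at 95%. Levels per length divide by the union of exons. In counts simulated for this comparison, with log2 fold changes of 1 in either direction, edgeR recovered 75.9% of 195 changed genes with 8 false calls over 11897 genes. The simulation had a single size of change and a small share of changed genes, whereas 38.0% of tested genes were called in the data. Its figures therefore do not give the power or the error rate of the calls reported here. Alternatives were DESeq2 1.42.0, limma-voom (limma 3.58.1), RLE size factors, library size alone, no filter, a minimum of 10 counts in all libraries, single libraries left out, the replicate number as a block, the longest transcript as length and 1 added to counts in ratios.

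Named genes are the 9 members, the tested genes of the list of other NADPH oxidases, in each of 6 lists the 3 called genes with the largest absolute change among those averaging 10 or more normalized counts, and the 5 genes most like Cybb. Results of some genes in these lists are not reported here. Other list genes were named after their values were seen. The members and lists were chosen with earlier results of these data known.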

Additional observations from a re-analysis of the deposited data

How the results depend on the processing

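Cybb and Ncf1 kept their direction and their call under all settings tried. Of 117 recomputed member values, 91 kept direction and call, 10 lost the call, 14 gained it, and 2 turned direction, both of Ncf4 (-0.025 without DMSO replicate 2, -0.011 without SKI-II replicate 2, in a range of -0.025 to 0.072 with 1 library left out). The number of members higher, 1, became 2 with DESeq2, limma-voom, RLE size factors, library size alone or at least 10 counts in every library, through Hvcn1, and that above a log2 fold change of 1, 0, became 1 under these and with no filter on low counts, again Hvcn1. With 1 library left out, the members higher ranged from 0 to 2, lower from 2 to 3, above 1 from 0 to 1, and below -1 stayed at 1. All genes higher ranged from 1507 to 2227 and lower from 1766 to 2387, pathway genes higher from 9 to 14 and lower from 16 to 19, the log2 difference of the Cyba to Cybb ratio from 3.41 to 3.90 and that of Rac2 to Rac1 from -0.35 to -0.15. Causes of the changed calls were not tested.

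The labels do not say whether libraries with the same replicate number share a culture or batch. The correlations of deviations for numbers 1, 2 and 3 were 0.246, 0.00994 and 0.458. That of number 3 was the highest of all pairs, but not every library correlated best with its own number. These values, from 3 libraries per group, cannot decide whether the numbers mark pairs. With the replicate number as a block, 3 members were higher, 5 lower and 1 above a log2 fold change of 1, Cyba (adjusted p = 0.0126), Rac1 (0.0364), Prkcd (0.0216) and Hvcn1 (0.0283) being added, beside 2765 genes higher and 2819 lower in all and 13 and 21 pathway genes. Hvcn1 had the fewest counts of the members, 29 to 147 per library, and whether depth or the spread between libraries limits its call was not tested.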

Other observations

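Enzymes that remove superoxide and peroxide formed a list of 6 genes, of which 5 were tested, 1 rose and 2 fell, with a median log2 fold change of 0.01. Cat, the gene of catalase, which breaks down hydrogen peroxide in peroxisomes, had 1722, 1951 and 2042 normalized counts in DMSO and 7114, 6762 and 5772 with SKI-II, with every SKI-II library higher (1905 ± 165 to 6549 ± 696, SD, n = 3 per group, log2 fold change 1.78, adjusted p = 1.64e-05 by edgeR). Gpx1, a glutathione peroxidase of the cytosol and mitochondria, fell from 4721 ± 229 to 2348 ± 726 (-1.01, adjusted p = 0.00432), and SKI-II replicate 1, at 1515, was the lowest of its group. Sod2, the superoxide dismutase of mitochondria, fell from 1917 ± 243 to 1015 ± 226 (-0.92, adjusted p = 0.00255). Sod3 had at most 3 counts in any library.

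The 5 genes whose log2 CPM was most like that of Cybb over the 6 libraries were Pdxk, Thop1, Coq6, Mapre2 and Msmo1, with Pearson r of 0.997 to 0.999. The libraries fall into 2 groups, and 1683 tested genes had r above 0.9, so the measure mainly reads the difference between the conditions. The log2 fold changes of these 5 genes lay between -1.21 and -0.64, and their means in DMSO between 356 and 2586 normalized counts.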
